A study of Mus musculus with 3 samples.

Results

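The B cell identity and germinal centre genes described here were *Mef2b*, *Eaf2*, *Cd79a*, *Cd79b*, *Ms4a1*, *Pax5*, *Ebf1*, *Fcmr*, *Cd22* and *Ly6d*. They were taken by symbol, and all 10 were among the 14148 genes counted in each of 3 single cell RNA sequencing (scRNA-seq) libraries. The libraries held CD45+ (immune) cells sorted from the muscularis externa, the muscle coat that was peeled from the small intestine of 12-week-old female WT C57BL/6J mice. 1 library came from naïve mice, and the others were made 24 h and 72 h after intestinal manipulation (IM), an operation in which the exteriorized gut is pressed along its length to inflame its muscle coat. Cells of 3 to 4 mice were combined before each sort. With a single library per time point, the effects of time and of library cannot be told apart, and no p-value was computed. The controls were naïve mice, so anaesthesia, laparotomy and manipulation cannot be told apart either.

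The libraries held 652 (naïve), 2211 (24 h) and 1239 (72 h) cells, with 1865221, 10542346 and 5246731 unique molecular identifiers (UMIs, each standing for 1 captured RNA molecule). Between any 2 of them, 1 cell barcode was shared. Levels are in CPM, which here means UMIs per 1000000 UMIs summed over a group of cells. CPM and ratios of CPM carry exact Poisson 95% intervals and shares of cells exact Clopper-Pearson 95% intervals, which cover counting error only.

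B cells carry an antigen receptor made of membrane immunoglobulin and the signalling pair encoded by *Cd79a* and *Cd79b*. *Pax5* and *Ebf1* encode the transcription factors that set and keep the B cell programme. In a germinal centre, activated B cells divide, mutate and switch their immunoglobulin genes, and *Mef2b* is a transcription factor known for its activity there upstream of *Bcl6*. *Eaf2* encodes a factor associated with RNA polymerase II elongation that is high in germinal centre B cells.

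B cells were defined without the 10 genes. Cells were clustered with 102 genes left out, these 10 and related genes, and 2 clusters were named B cell-like from other markers such as *Ighm*, *Ighd* and *Bank1*. The larger cluster held 291 cells and the smaller 102. The smaller cluster was mixed, so its cells were divided by immunoglobulin UMIs: 9 cells with at least 1% *Jchain* (the joining chain of secreted immunoglobulin) were set apart as plasma cells, and 39 cells with fewer than 2 light chain UMIs were counted among the other cells. *Mki67* or *Top2a*, genes of cell division, had a UMI in 38 of those 39 cells. This left 345 B cells, 291 of the larger and 54 of the smaller cluster. All 9 of the B cell markers were detected in them in each library, although the B cells of the smaller cluster held UMIs of 4 markers at 24 h and 5 at 72 h. The cuts were chosen after the data were seen. 12 of the 345 cells had 2 or 3 light chain UMIs, and *Jchain* ran up to 0.369% below the cut and from 5.75% above it.

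B cells were 263 of 652 naïve cells (40.3%, 95% interval 36.5 to 44.2%), 33 of 2211 cells at 24 h (1.49%, 1.03 to 2.09%) and 49 of 1239 cells at 72 h (3.95%, 2.94 to 5.19%). Shares fall where other cells enter, and the pooled libraries give no absolute number of B cells. The larger cluster held 218, 31 and 42 of them, and the smaller 45, 2 and 7. *Ighm* had a UMI in 93.5% and *Ighd* in 70.1% of the larger cluster, against 20.4% and 3.70% of the smaller. *Mki67* or *Top2a* had a UMI in 2.06% and 61.1%. *Ighm* and *Ighd* were naming markers and were not left out of the clustering, so their contrast is not independent of it. The median depth was 1747 UMIs per cell in the larger and 5915 in the smaller cluster, so the shares of cells below depend on depth as well as on expression.

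RefSeq promoter sequences (GRCm38.p6, the build of the files) were at hand for 7 members, and none is shown for *Cd79b*, *Ms4a1* and *Ly6d*. The 250 bases before each start were searched on both strands for 5 motifs named for factors known in B cells: the octamer ATGCAAAT bound by Pou2f1 and Pou2f2, the palindrome CCCNNGGG of Ebf1, the E-box CAGCTG of E2A, the purine-rich core GAGGAA of Ets factors such as Spi1, and the κB motif of NF-κB. The stretches below hold 1 motif each, are written 5′ to 3′ on the gene's strand with the motif in capitals, and leave out every base that GENCODE vM21 places in an exon. They are shown because *Mef2b* and *Eaf2*, which were found in the same cells, shared none of the 5 motifs with each other, while Ebf1, itself a member, lends its motif to *Eaf2* and *Cd22*.

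Mef2b, chr8:70152511-70152760, plus strand: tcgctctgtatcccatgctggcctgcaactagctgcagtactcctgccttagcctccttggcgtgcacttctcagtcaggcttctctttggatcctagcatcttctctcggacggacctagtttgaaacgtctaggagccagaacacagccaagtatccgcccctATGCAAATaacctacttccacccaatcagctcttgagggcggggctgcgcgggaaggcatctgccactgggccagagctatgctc
Eaf2, chr16:36828262-36828384, minus strand: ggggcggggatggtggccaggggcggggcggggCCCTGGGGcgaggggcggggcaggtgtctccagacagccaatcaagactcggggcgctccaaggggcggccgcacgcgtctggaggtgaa
Cd22, chr7:30879029-30879176, minus strand: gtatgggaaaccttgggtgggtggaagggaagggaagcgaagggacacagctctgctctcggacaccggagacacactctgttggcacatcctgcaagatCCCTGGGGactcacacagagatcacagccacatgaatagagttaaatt
Cd79a, chr7:24897247-24897380, plus strand: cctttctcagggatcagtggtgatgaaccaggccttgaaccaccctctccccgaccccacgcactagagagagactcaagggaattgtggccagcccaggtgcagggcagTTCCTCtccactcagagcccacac
Fcmr, chr1:130865527-130865668, plus strand: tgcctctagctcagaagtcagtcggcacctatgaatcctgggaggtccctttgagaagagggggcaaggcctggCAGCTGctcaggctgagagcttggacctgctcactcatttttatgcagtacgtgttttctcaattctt

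The octamer of *Mef2b* lay 85 to 78 bases before the start, and 1.60% of all 32851 RefSeq promoter windows hold one. *Eaf2* has 3 annotated starts, and the start shown has the Ebf1 palindrome 92 to 85 bases before it. *Cd22* has it 48 to 41 bases before the start, and 11.8% of all windows hold one. The purine-rich core of *Cd79a* reads TTCCTC on the gene's strand, and 23.3% of windows hold it. The E-box of *Fcmr* is in 13.0% of windows. The NF-κB motif was in no member's window and in 0.140% of all. A match is a description of letters and not a binding site. The *Mef2b* start lies inside the span that GENCODE gives the gene, which overlaps *Borcs8* on the same strand with 3′ ends 20169 bases apart. *Eaf2* overlaps *Iqcb1* on the opposite strand. The other members lie at chr11:106311341-106314762 (*Cd79b*, minus strand), chr19:11249675-11266241 (*Ms4a1*, minus), chr4:44524757-44710487 (*Pax5*, minus), chr11:44617317-45008091 (*Ebf1*, plus) and chr15:74762056-74763620 (*Ly6d*, minus).

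All 10 genes were far higher in B cells than in other cells of the naïve library. B cell levels were above those of other cells by 20.4-fold for *Ly6d* at the least and 145-fold for *Mef2b* at the most, and 10 of 10 genes were at least 2-fold higher, against 10.0% of 7457 genes with at least 20 UMIs. At 24 h this held for 7 of 7 members with enough UMIs (19.5% of all genes), and at 72 h for 9 of 9 (17.8%).

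Of the transcription factors, *Pax5* was at 109 CPM in naïve B cells (95% interval 85.9 to 136), at 87.6 CPM (32.1 to 191) at 24 h and at 158 CPM (103 to 234) at 72 h, with a UMI in 62 of 263, 6 of 33 and 18 of 49 cells. *Ebf1* was at 1190.2 CPM (1111 to 1274), 1314 CPM (1056 to 1615) and 1268 CPM (1098 to 1456), with a UMI in 239, 30 and 46 cells. For both genes the intervals of the 3 libraries overlapped. In other cells *Pax5* had 5, 8 and 9 UMIs, or 4.50, 0.764 and 1.77 CPM, so that the naïve ratio of 24.2 (9.93 to 76.6) rests on 5 UMIs of other cells.

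The receptor pair was detected in nearly every B cell. *Cd79a* was at 2289 CPM (2178 to 2404) in naïve B cells, 2583 CPM (2217 to 2993) at 24 h and 2326 CPM (2094 to 2577) at 72 h. It had a UMI in 252 of 263, 33 of 33 and 47 of 49 B cells. *Cd79b* was at 1392 CPM (1306 to 1483), 1693 CPM (1399 to 2031) and 1439 CPM (1258 to 1639). For both genes the intervals of the 3 libraries overlapped again. Their ratios over other cells in the naïve library were 41.6 (32.2 to 54.7) and 23.8 (18.5 to 31.1).

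Among the genes of surface proteins, the share of naïve B cells with a UMI ran from 35.0% for *Cd22* to 79.5% for *Ms4a1*. *Ms4a1* encodes CD20, a membrane protein that supports receptor-driven calcium entry, and was at 1069.7 CPM (994 to 1149) in naïve B cells, 1168 CPM (926 to 1453) at 24 h and 957 CPM (810.5 to 1122) at 72 h. *Cd22*, a sialic acid-binding inhibitor of receptor signalling, was at 189 CPM (158 to 224), 175 CPM (90.5 to 306) and 209 CPM (144 to 294). *Fcmr*, the Fc receptor for IgM, was at 439 CPM (391 to 491), 613 CPM (442 to 829) and 431 CPM (335 to 546). For each of these genes the intervals overlapped as well. *Ly6d*, a GPI-anchored surface protein that marks lymphoid progenitors committed to B cells, was the exception among the identity genes. It was at 1229 CPM (1148 to 1314) in naïve B cells, 2116 CPM (1786 to 2490.3) at 24 h and 1077 CPM (922 to 1252) at 72 h, and the 24 h interval lay above both others.

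*Mef2b* and *Eaf2* were in few B cells. *Mef2b* was at 261 CPM (224 to 302) in naïve B cells, 73.0 CPM (23.7 to 170.3) at 24 h and 234 CPM (165 to 323) at 72 h, from 182, 5 and 37 UMIs in 47, 3 and 8 cells. *Eaf2* was at 61.7 CPM (44.6 to 83.1), 14.6 CPM (0.370 to 81.3) and 19.0 CPM (3.92 to 55.6), from 43, 1 and 3 UMIs in 23, 1 and 1 cells. The values at 24 h and 72 h thus rest on a handful of cells. In other cells *Mef2b* had 2, 2 and 7 UMIs and *Eaf2* 1, 4 and 0. The naïve ratios of 145 for *Mef2b* (39.5 to 1205) and 68.4 for *Eaf2* (11.6 to 2766) are wide for that reason.

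**Figure D1:**
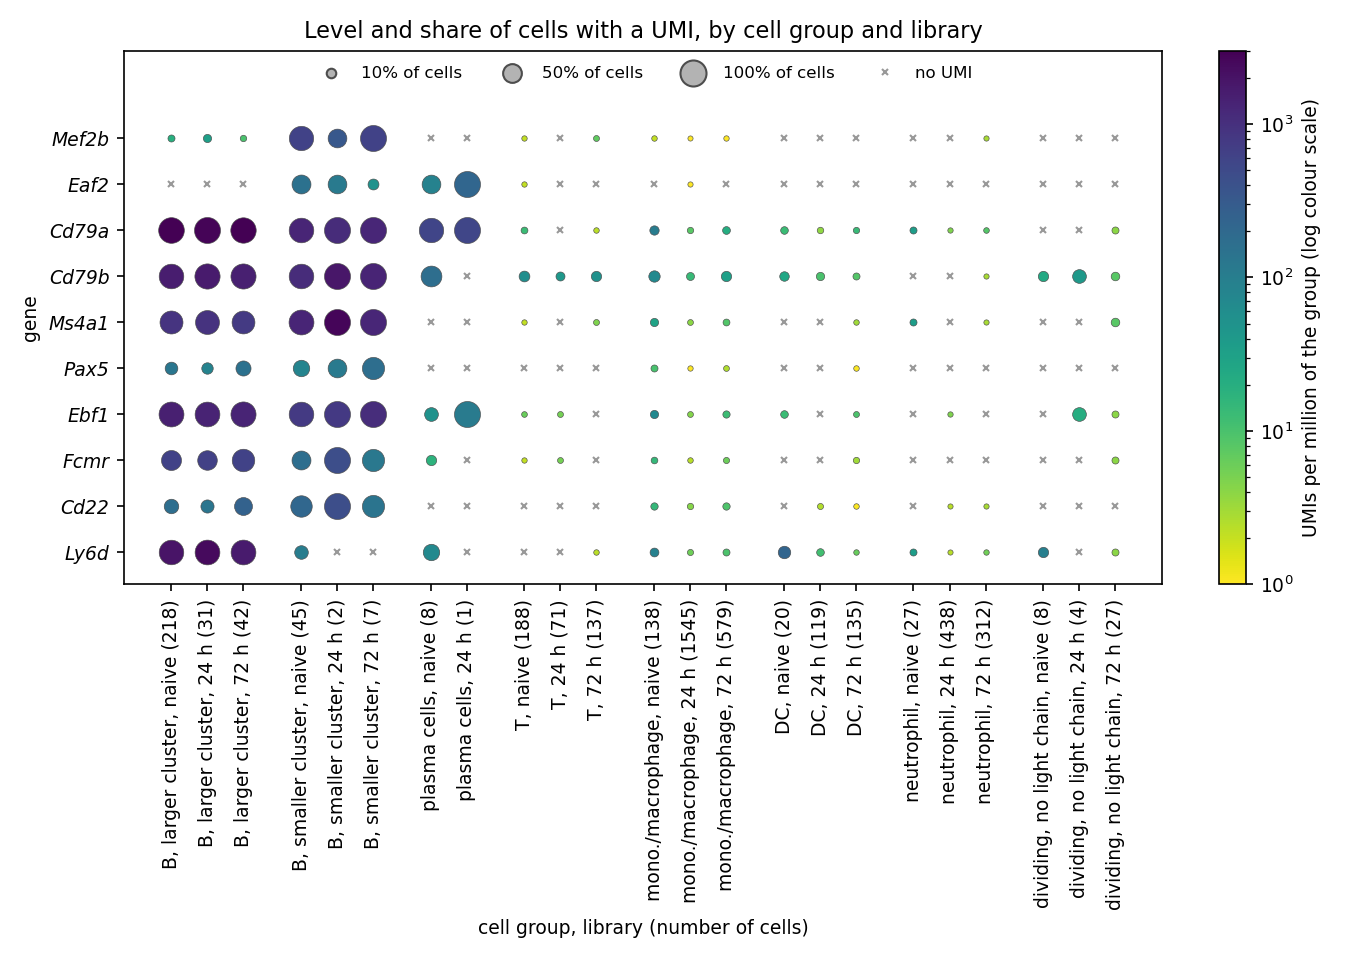
Level and spread of the 10 genes by cell group and library. Each column is a cell group in 1 library with its number of cells, colour is the CPM of the summed UMIs on a log scale, the area of a point is the share of cells with a UMI, and a cross stands for no UMI. *Cd79a* and *Ebf1* have large points in both B cell clusters, *Mef2b* in the smaller one and *Ly6d* in the larger one.

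Within B cells, *Mef2b* and *Eaf2* were found mainly in the smaller cluster. At least 1 UMI of either gene was found in 48 of the 54 B cells of the smaller cluster (88.9%, 77.4 to 95.8%) and in 11 of 291 of the larger (3.78%, 1.90 to 6.66%). All 11 of the latter had a single *Mef2b* UMI, and *Eaf2* had no UMI in the larger cluster. Of 25 B cells with *Eaf2*, 24 also had *Mef2b*, while 34 of 58 cells with *Mef2b* had no *Eaf2* UMI. All 25 were in the smaller cluster, where 47 of 54 cells had *Mef2b*, so the count shows no pairing beyond the shared cluster.

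By library, a UMI of either gene was found in 48 of 263 naïve B cells (18.3%, 13.8 to 23.5%), 3 of 33 at 24 h (9.09%, 1.92 to 24.3%) and 8 of 49 at 72 h (16.3%, 7.32 to 29.7%). The 3 intervals overlap. The cells with a UMI were deeper, with a median of 5093 UMIs against 1739.5 in the other B cells. After each cell was thinned to 1000 UMIs, which left out 16 shallower B cells, the shares were 11.2% (28 of 250), 0% (0 of 31, which allows up to 9.68%) and 6.25% (3 of 48). Other cells thinned in the same way gave 0.0923% (3 of 3250), and neutrophils, which lack a B cell programme, gave 0 of 332 cells. The median depth of all 777 neutrophils was 932 UMIs, and thinning left out 445 of them.

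Counts per cell set the clusters apart further. *Mef2b* had a median of 3 UMIs and up to 21 in cells of the smaller cluster, and 37 of 54 had at least 2. *Eaf2* had at least 2 UMIs in 8 of the 54, and the 2 highest cells, with 9 and 7 UMIs, held 34.0% of its UMIs there. The highest of them was unlike the rest. It had no UMI of *Cd79a* or *Ms4a1* but 10 of *Ly6d*, 374 of *Igha* and 5 of *Sdc1*, a plasma cell surface gene, and its *Jchain* share of 0.369% was the highest below the cut.

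**Figure D2:**
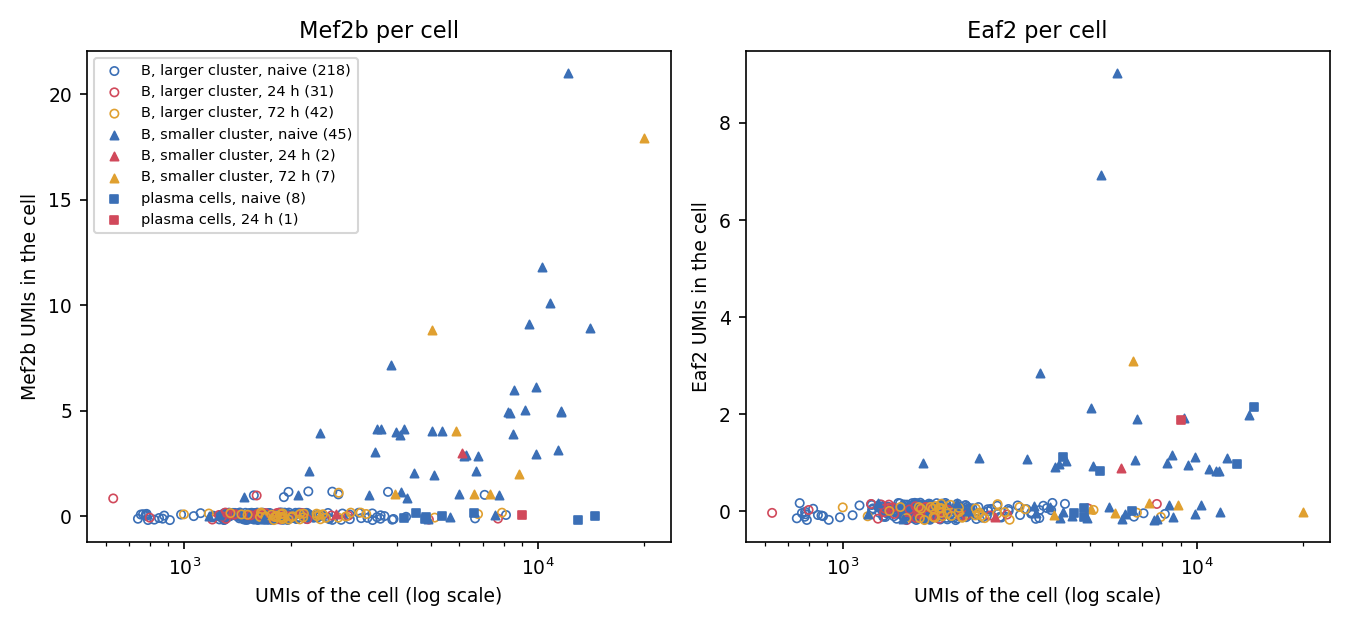
UMIs of *Mef2b* (left) and *Eaf2* (right) in each B cell and plasma cell against the depth of the cell on a log scale. Shape gives the group and colour the library, and points are spread vertically by up to 0.18 UMIs so that they can be told apart. Cells of the larger cluster lie at 0 or 1 UMI of *Mef2b* and at 0 of *Eaf2*, and cells of the smaller cluster reach 21 and 9.

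B cells with a *Mef2b* or *Eaf2* UMI differed from the rest in *Ly6d* and *Fcmr* most. In the naïve library 48 such cells were compared with the other B cells. The levels of *Mef2b* (637 against 0 CPM) and *Eaf2* (150.5 against 0 CPM) follow from the choice of cells and are no result. Of the 8 remaining members, 2 were past 2-fold and both were lower, against 30.5% of 3962 genes past 2-fold either way, of which 21.0% were higher and 9.49% lower. The count of members is thus not above that of all genes, and the median of all genes was 0.26 on the log2 scale.

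*Ly6d* was at 287 CPM (82 UMIs) in cells with and 1883 CPM (775 UMIs) in cells without *Mef2b* or *Eaf2*, a ratio of 0.152 (0.120 to 0.192). *Fcmr* was at 231 CPM and 583 CPM, a ratio of 0.396 (0.297 to 0.522). After thinning, a *Ly6d* UMI was left in 20.8% (10 of 48) and 80.2% (162 of 202) of the cells. A *Fcmr* UMI was left in 12 of 48 and in 41.1% (83 of 202). In the thinned counts the intervals of the shares were apart for *Ly6d* (10.5 to 35.0% and 74.0 to 85.5%). They overlapped for *Fcmr* (13.6 to 39.6% and 34.2 to 48.2%). The groups were set on counts before thinning, so membership still depends on depth. After thinning, 28 of the 48 cells kept a UMI of *Mef2b* or *Eaf2*.

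*Cd79a* and *Ebf1* were lower to the same degree, just short of the 2-fold line. *Cd79a* was at 1474 CPM against 2854 CPM, a ratio of 0.516 (0.461 to 0.578), and *Ebf1* at 766.5 CPM against 1484 CPM, a ratio of 0.516 (0.441 to 0.604). *Cd79b*, the partner of *Cd79a*, had a ratio of 0.787 (0.688 to 0.899), above that of *Cd79a* beyond both intervals. *Ms4a1* was the member that was higher in cells with *Mef2b* or *Eaf2*, at 1376 CPM against 857 CPM, a ratio of 1.60 (1.39 to 1.86). For *Pax5* (0.794, 0.477 to 1.30) and *Cd22* (1.13, 0.787 to 1.61) the interval held 1.

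At 72 h there were 8 cells with a UMI of either gene, too few to compare under the minimum of 20 cells, so their values are given side by side with the 41 others. *Ly6d* was at 133 against 1663 CPM, and all 8 UMIs of the first group were in 1 cell. *Fcmr* was at 133 against 616 CPM, *Cd79a* at 1342 against 2935 CPM, *Ebf1* at 1044 against 1406 CPM, and *Ms4a1* at 1226 against 790.2 CPM. For these 5 genes the order of each pair was that of the naïve library. For *Cd22* (133 against 257 CPM) and *Pax5* (166 against 154 CPM) it was the reverse.

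**Figure D3:**
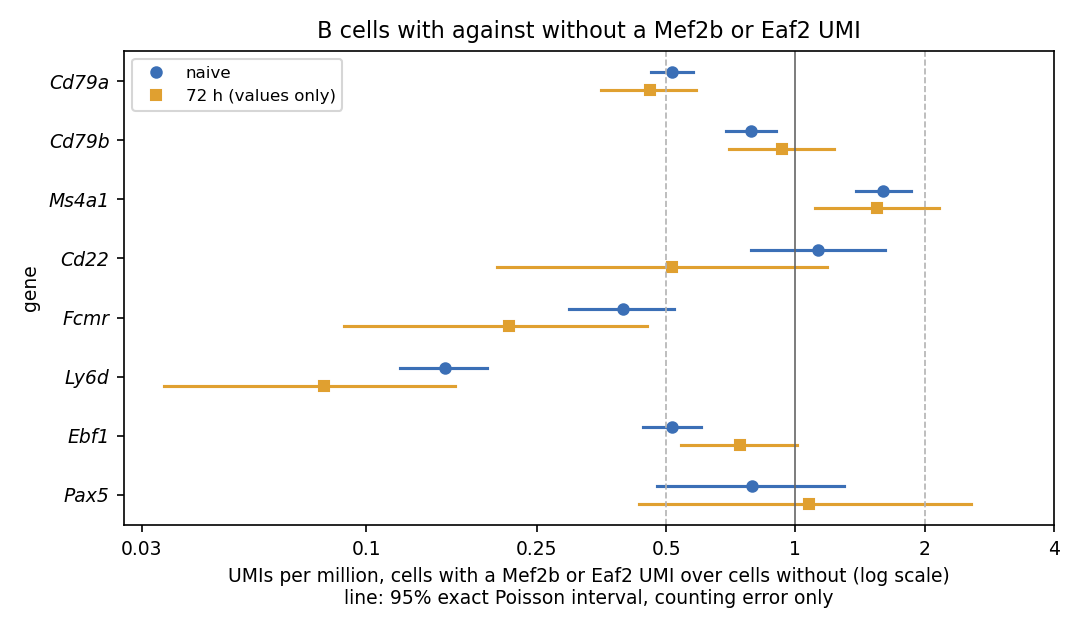
Ratio of the CPM in B cells with a *Mef2b* or *Eaf2* UMI to that in B cells without, for the other 8 genes in the naïve and 72 h libraries, on a log axis. Points are ratios, lines are exact 95% intervals for counting error, and the dashed lines mark 2-fold. *Ly6d* and *Fcmr* lie left of the lower 2-fold line in both libraries and *Ms4a1* lies right of 1. The 72 h points come from 8 cells against 41 and are shown as values only.

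A comparison of the clusters themselves takes nearly the same cells, since 40 of the 48 naïve cells with either gene were in the smaller cluster. Of the other 8 members, 3 were past 2-fold and all were lower, near the 32.4% of all genes past 2-fold. In the naïve library *Ly6d* was at 103 CPM in 45 B cells of the smaller and 1995 CPM in 218 of the larger cluster, a ratio of 0.0515 (0.0343 to 0.0745). *Fcmr* had a ratio of 0.280 (0.202 to 0.382), *Cd79a* 0.445 (0.395 to 0.50), *Ebf1* 0.511 (0.435 to 0.597) and *Ms4a1* 1.49 (1.28 to 1.72). At 24 h and 72 h *Ly6d* had no UMI in the 2 and 7 B cells of the smaller cluster. 10 of the 29 *Ly6d* UMIs of the smaller cluster came from the single cell with 9 *Eaf2* UMIs.

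The 11 cells of the larger cluster with 1 *Mef2b* UMI are given beside the 280 others there, as values only. *Ly6d* was at 2148 against 1980 CPM, *Fcmr* at 658 against 617 CPM, *Cd79b* at 1559 against 1573 CPM and *Ms4a1* at 866 against 879 CPM. *Cd79a* was at 2390 against 2960 CPM and *Ebf1* at 693 against 1494 CPM, the latter from 20 UMIs in the first group. *Cd22* was at 104 against 185 CPM and *Pax5* at 173 against 125 CPM, from 3 and 5 UMIs. In the smaller cluster, 48 cells with and 6 without a UMI of either gene are likewise given as values only. *Cd79a* was at 1364 against 473 CPM, *Ebf1* at 845 against 387 CPM, *Fcmr* at 178 against 86.1 CPM and *Ly6d* at 89.1 against 0 CPM. For these genes the order was the reverse of that over all naïve B cells. Of the other 8 members, 5 were at least 2-fold higher there and 0 lower.

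The genes around *Mef2b* and *Eaf2* in these cells were those of germinal centres and of cell division. Among 11 germinal centre genes with enough UMIs, 9 were at least 2-fold higher in naïve B cells with *Mef2b* or *Eaf2*. None was at least 2-fold lower, and the median was 5.07 on the log2 scale. Of all 3962 genes, 21.0% were higher and 9.49% lower, and the lists that follow are read against these shares. *Rgs13*, a regulator of chemokine receptor signalling, was 28.5-fold higher (14.1 to 67.1), and *S1pr2*, the receptor that confines B cells to the germinal centre, had 54 against 1 UMIs. *Basp1* was 34.6-fold higher (16.4 to 87.3). *Nuggc* had 34 against 0 UMIs, at least 16.3-fold higher by a floor of 3 counts over the group. *Lmo2* (0.706) and *Il21r* (0.606) were the 2 that did not pass 2-fold. All 12 cell division genes were at least 2-fold higher, *Pclaf* by 15.7-fold and *Mki67* by 10.8-fold. Within the smaller cluster, 48 cells had and 6 lacked a UMI of either gene, so counts there are given as values only. Of these 12 genes, 2 were at least 2-fold higher and 4 lower. Of 11 germinal centre genes, 6 were higher and none lower. Of all genes 23.7% were higher and 11.6% lower.

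Genes of resting follicular B cells were lower. Of 11 tested, 8 were at least 2-fold lower, against 9.49% of all genes. None was at least 2-fold higher, and the median was -2.64 on the log2 scale. *S1pr1*, the receptor for exit from lymphoid tissue, had 2 against 58 UMIs (ratio 0.0497, 0.00588 to 0.188). *Klf2*, a transcription factor of quiescence upstream of *S1pr1*, had a ratio of 0.0934 (0.0570 to 0.145). *Cd38*, which germinal centre B cells of mice are known to lose, had a ratio of 0.0873 (0.0313 to 0.197). *Tnfrsf13c*, the receptor for the survival factor BAFF, was at 490.0 against 447 CPM, a ratio of 1.10 (0.874 to 1.37). *Btla* (0.901) and *Cxcr5* (0.515, 0.223 to 1.09) also did not pass 2-fold.

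Immunoglobulin genes differed by class. Of 8 constant region genes, 3 were higher and 2 lower in cells with *Mef2b* or *Eaf2*, against 21.0% and 9.49% of all genes. *Ighm* had a ratio of 0.230 (0.190 to 0.278) and *Ighd* 0.124 (0.0797 to 0.185). *Ighg2b* had 203 against 2 UMIs, a ratio of 146, and was in 28 of 48 cells. *Igha* had a ratio of 25 (18 to 35.7), but 65.8% of its 660 UMIs were in 3 cells. *Iglc1* had a ratio of 9.09 (7.67 to 10.8), with 864 of its 990 UMIs in 1 cell, and it is not read as a property of the group. *Jchain* was 16.5-fold higher (10.7 to 26.8), with a UMI in 40 of the 48 cells. *Ighm*, *Ighd* and *Jchain* were not left out of the clustering, and *Jchain* also set the cut for plasma cells.

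For signalling genes and other B lineage transcription factors, the counts were not above the 30.5% of all genes past 2-fold either way. Of 15 receptor signalling genes, 1 was at least 2-fold higher (*Plcg2*, 2.67, 1.51 to 4.85) and 3 lower (*Cd72* 0.135, *Cr2* 0.260 and *Dapp1* 0.288). None of 11 B lineage transcription factors was past 2-fold. The closest were *Tcf3*, which encodes E2A (1.98, 1.25 to 3.15), and *Bcl11a* (0.507, 0.341 to 0.740). The remaining lists had few genes with enough UMIs. 3 of 4 plasma cell genes were higher and *Irf4* was lower (0.450, 0.129 to 1.29), 1 of 2 B-1 and marginal zone genes was lower (*Plac8*, 0.151), and the only early B lineage gene tested, *Vpreb3*, had a ratio of 0.488 (0.375 to 0.630).

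Over all genes but *Mef2b* and *Eaf2* with at least 50 UMIs in the 2 groups of naïve cells, the 5 with the highest ratio included *Ighg2b*, *S1pr2*, *Basp1* and *Rgs13*, and 4 of the 5 are on the germinal centre list. The 5 with the lowest included *Hist1h2bc* (0 against 50 UMIs), *S1pr1*, *Cd55* (0.0618) and *Mndal* (0.0750). *Cd55* is also a naming marker of B cells. Markers of monocytes and macrophages moved with the split, and their part in it was not tested. Their summed level was 1012 CPM in cells with and 134 CPM in cells without *Mef2b* or *Eaf2*, with 8 of 10 markers detected in each group and *Fcgr1* at 0 in both. The level of T cell markers was 49.0 and 153 CPM, with *Cd4* at 0 in both.

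Between libraries, *Mef2b* and *Eaf2* were the only members past 2-fold in all B cells, and they had 5 and 1 UMIs at 24 h. At 24 h against naïve, *Mef2b* (0.280, 0.0897 to 0.665) and *Eaf2* (0.237, 0.00586 to 1.39) were the 2 of 10 members past 2-fold, both lower, where 25.8% of 4248 genes were past 2-fold and 19.2% were lower. At 72 h against naïve, *Eaf2* alone was past it (0.308, 0.0612 to 0.963), where 12.0% of genes were. At 72 h against 24 h, *Mef2b* was (3.21, 1.26 to 10.5), where 13.6% of genes were. *Eaf2* was not tested in that pair, with 3 and 1 UMIs. These counts are near the share over all genes.

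The smaller cluster made up 45 of 263 B cells in the naïve library, 2 of 33 at 24 h and 7 of 49 at 72 h, and it held 174 of 182, 3 of 5 and 36 of 37 *Mef2b* UMIs. In its cells *Mef2b* was at 616 CPM (528 to 715) in the naïve library and 625 CPM (438 to 865) at 72 h. *Eaf2* was at 152 CPM (110.2 to 205) and 52.1 CPM (10.7 to 152), the latter from 3 UMIs of 1 cell. With 2 cells at 24 h and 7 at 72 h, levels within this cluster were not compared.

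Within the larger cluster none of the 8 members with enough UMIs was past 2-fold. *Mef2b*, with 8, 2 and 1 UMIs, and *Eaf2*, with none, were not compared. The count was 0 of 8 for each of the 3 pairs of libraries, against 18.6% of 2638 genes for 24 h and 13.2% of 2838 for 72 h over naïve, and 10.3% of 924 for 72 h over 24 h. *Cd79a* was at 2952, 2796 and 2925 CPM in the naïve, 24 h and 72 h libraries, and the ratios to naïve were 0.947 (0.801 to 1.11) and 0.991 (0.869 to 1.13). For *Ebf1* they were 0.936 (0.735 to 1.18) and 0.921 (0.760 to 1.11). The intervals were wider for *Pax5* (0.656, 0.205 to 1.63, and 1.17, 0.614 to 2.11) and *Cd22* (0.783, 0.326 to 1.63, and 1.46, 0.886 to 2.33), and they do not exclude a 2-fold difference.

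*Ly6d* was the member whose intervals left 1 within the larger cluster. It was at 1995 CPM (1862 to 2136), 2428 CPM (2049 to 2857) and 1697 CPM (1451 to 1972), with a ratio of 1.22 (1.01 to 1.45) for 24 h over naïve and 0.699 (0.557 to 0.878) for 72 h over 24 h. At 24 h, 1 of the 31 cells held 32 of the 145 *Ly6d* UMIs. The intervals take no account of UMIs concentrated in 1 cell, and the ratios without that cell were not computed. Over all B cells the ratio of 24 h over naïve was 1.72 (1.43 to 2.06). The share of B cells of the smaller cluster, in which *Ly6d* was low, was lower at 24 h.

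**Figure D4:**
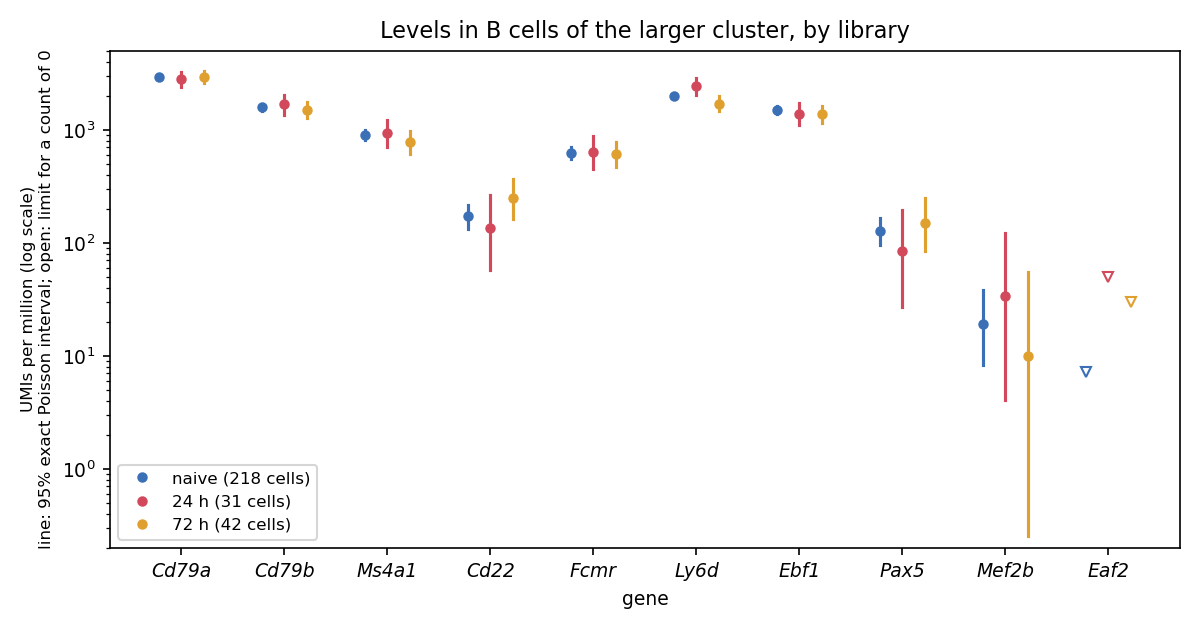
CPM of the 10 genes in B cells of the larger cluster by library, on a log axis, with exact 95% intervals as lines. Open triangles for *Eaf2* mark the limit that a count of 0 allows in each library. The 3 libraries lie within 2-fold of each other for each of the identity genes, and *Mef2b* rests on 8, 2 and 1 UMIs.

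Related genes of the larger cluster are read against 11.3% of all genes lower at 24 h over naïve. Of 11 resting follicular genes 2 were lower, *Gpr183* (0.148, 0.00367 to 0.865) and *S1pr1* (0.479, 0.126 to 1.29), and at 72 h none was past 2-fold. Of 15 receptor signalling genes, 3 were lower at 24 h from 1 UMI each (*Btk*, *Dapp1* and *Plcg2*) and 1 was higher. The only transcription factor past 2-fold was *Tcf3* (0.434, 0.0504 to 1.70) and the only immunoglobulin gene *Igha* (0.421, 0.0490 to 1.65), both lower at 24 h from 2 UMIs. At 72 h *Fcgr2b*, the inhibitory Fc receptor, was higher (2.61, 1.33 to 4.96) and *Dapp1* lower. *Hmgb2*, the only division gene with enough UMIs, was lower at 24 h (0.496, 0.0984 to 1.55, from 3 UMIs) and higher at 72 h (2.37, 1.37 to 4.0). Markers of monocytes, macrophages and neutrophils were higher in B cells of the larger cluster at 24 h and 72 h. Those of monocytes and macrophages summed to 123 CPM in the naïve library (8 of 10 detected), 1440.1 CPM at 24 h (9 of 10) and 1088 CPM at 72 h (8 of 10), and those of neutrophils to 19.3, 318 and 509 CPM (2, 4 and 4 of 6) with *Cxcr2* at 0 in each. T cell markers were at 28.9, 16.7 and 59.9 CPM (5, 1 and 4 of 9), and DC markers at 118, 100.5 and 169.7 CPM (3, 1 and 4 of 8). Their part in the values of these genes was not tested.

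Of the 10 genes, *Eaf2* was the one with a higher level in plasma cells than in all B cells together. Immunoglobulin made up 53.7% of the UMIs of the 9 cells, so levels were compared without it. *Eaf2* had a UMI in 5 of 9 cells, and its level was 226 CPM against 51.6 CPM in B cells, a ratio of 4.39 (1.67 to 9.77) that rests on 7 UMIs. The B cell value includes the larger cluster, where *Eaf2* had no UMI. In the smaller cluster *Eaf2* was at 135 CPM (99.0 to 179) with immunoglobulin counted, which made up 1.26% of UMIs there. A ratio of plasma cells to those cells was not computed. *Cd79a* was at 1261 against 2348 CPM (ratio 0.537, 0.381 to 0.737) and *Cd79b* at 323 against 1442 CPM (0.224, 0.107 to 0.414). *Mef2b*, *Ms4a1*, *Pax5* and *Cd22* had no UMI, and for *Ms4a1* the upper bound of the ratio was 0.111. For *Pax5* it was 1.03, so its absence could not be shown at this depth. With 8 and 1 of these cells in the naïve and 24 h libraries, no comparison of libraries was made.

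Outside B cells, the 10 genes were low and unevenly spread. Other cells with at least 4 UMIs of *Cd79a*, *Ms4a1* and *Ebf1* together numbered 33 of 3748, of which 31 were monocytes or macrophages, 1 a T cell and 1 a DC. Their median was 14 light chain UMIs, and none of them was among the 54 cells with the highest doublet scores. These cells were chosen by the 3 genes, so the levels of the 3 genes in the rest fall by the choice, and the values are a description. Without them, the naïve ratio of B cells over other cells was 188 in place of 41.6 for *Cd79a*, 318 in place of 33.9 for *Ebf1* and 46.9 in place of 20.4 for *Ly6d*. For *Cd79b* it was 29.8 in place of 23.8.

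*Cd79b* was spread over more cells than its partner. In T cells it had 59 UMIs in 49 of 396 cells where *Cd79a* had 7 in 7, a ratio of 8.43 (3.85 to 21.9) against 0.614 (0.573 to 0.658) in B cells. Its level in T cells was 58.9, 42.4 and 53.4 CPM in the naïve, 24 h and 72 h libraries. In monocytes and macrophages the ratio of *Cd79b* to *Cd79a* was 1.35 (1.12 to 1.64), with 256 UMIs in 185 of 2262 cells. After thinning, *Cd79b* had a UMI in 3.65% of T cells (14 of 384), 1.48% of monocytes and macrophages (33 of 2223), 1.10% of DCs (3 of 272) and 0 of 332 neutrophils, which allows up to 0.904%. By library the T cells with a *Cd79b* UMI were 11 of 177 (naïve), 0 of 70 (24 h) and 3 of 137 (72 h). The neutrophil value is the background to these shares. Only 10 of the 332 neutrophils were naïve, which allows a share of up to 30% there, so the naïve T cells have no matched background.

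*Cd22* in monocytes and macrophages was also out of proportion. It had 75 UMIs in 66 cells, and its ratio to *Cd79a* was 0.397 (0.30 to 0.521) against 0.0827 (0.0706 to 0.0965) in B cells. In T cells *Cd22* had no UMI. Its level in monocytes and macrophages was 14.4, 4.33 and 9.32 CPM in the 3 libraries, against 189, 175 and 209 CPM in B cells. The ratios of *Ms4a1* (0.407, 0.308 to 0.534) and *Ebf1* (0.598, 0.469 to 0.759) to *Cd79a* in the same cells had intervals that held those of B cells (0.457 and 0.523).

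*Ly6d* had a second place among DCs. In the naïve library it had 18 UMIs in 4 of 20 DCs, or 227 CPM (135 to 359). 3 of these cells had at least 2 UMIs and held 17 of the 18. All 3 had UMIs of plasmacytoid DC markers such as *Siglech*, 35 in all against 2 in the other naïve DCs, and none had a *Cd79a* UMI. At 24 h the 1 DC with at least 2 *Ly6d* UMIs had 4 UMIs of these markers, and 43 were in other DCs. At 24 h and 72 h *Ly6d* was at 11.3 and 6.34 CPM in DCs. The 6 UMIs at 72 h were in 1 cell without plasmacytoid DC markers and with 11 *Cd79a* UMIs.

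**Figure D5:**
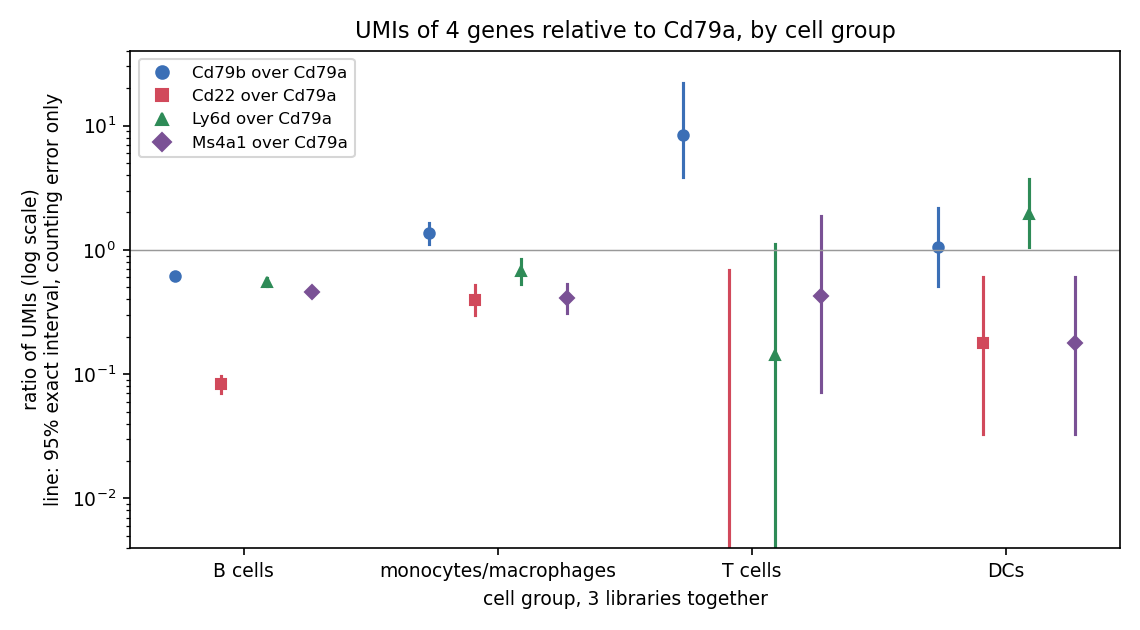
UMIs of *Cd79b*, *Cd22*, *Ly6d* and *Ms4a1* relative to those of *Cd79a* in 4 cell groups, with the 3 libraries together, on a log axis. Points are ratios and lines exact 95% intervals for counting error, lines that end at the bottom edge reach lower values, and *Cd22* in T cells has no point because it had no UMI. *Cd79b* in T cells and *Cd22* in monocytes and macrophages lie above their ratios in B cells.

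The 39 cells with fewer than 2 light chain UMIs (24 with 0 and 15 with 1) had almost no UMI of the 10 genes. *Mef2b*, *Eaf2*, *Pax5* and *Cd22* had none in cells with a median of 9193 UMIs. *Cd79b* and *Ly6d* had 5 UMIs each, in 4 and 2 cells, and 4 of those of *Ly6d* came from 1 cell. *Ighm* had 61 UMIs in 26 of them.

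Over 17 groups of at least 20 cells (cell type by library), the genes whose level on the log2 scale, with a pseudocount of 10 CPM, followed the mean of the 10 members most included *Tnfrsf13c* (Pearson's r 0.990), *Gm30211* (0.990), *Vpreb3* (0.984), *Iglc2* (0.982), *Srpk3* (0.980), *Bend5* (0.968), *Dennd5b* (0.966), *Pou2af1* (0.965) and *Scd1* (0.961), out of 9874 genes. The groups come from 3 libraries and 4 of them are B cells, so these values describe a contrast between B cells and the rest. Of the members, *Eaf2* (0.436) and *Mef2b* (0.735) followed the mean least, then *Ly6d* (0.884), and the other 7 lay between 0.957 and 0.990.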

How the data were processed

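The libraries were made with the 10x v2 kit for 3′ ends. Per the labels, the authors used Cell Ranger 3.0.2 for alignment (GRCm38/mm10) and UMI counting, and kept cells in which at least 200 genes were detected and mitochondrial UMIs stayed within 10%. The deposited values are raw UMI counts per gene and cell. How the genes were filtered is not given in the sources used here. Counts from the 3′ end of transcripts are not scaled by length, so levels of different genes are not ranked.

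Cells of the 3 libraries were clustered together with Seurat 5.3.0 (R 4.3.3) from 2000 variable genes, 30 principal components, 20 neighbours, resolution 0.8 and random seed 0. The members and those listed genes that were not naming markers, 102 in all, were left out of the variable genes. Listed genes that were also naming markers, such as *Ighm*, *Ighd*, *Igkc* and *Jchain*, were not left out. A cluster was named when at least 3 markers were in at least 10% of its cells and at least 2-fold above other cells. Light chain UMIs are those of *Igkc*, *Iglc1*, *Iglc2* and *Iglc3*. A cut of 4 light chain UMIs and 2% *Jchain* was tried first and lowered to 2 UMIs and 1%. Doublets were kept, and scores came from Scrublet in scanpy 1.11.5.

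UMIs were summed per group with numpy 2.4.6, pandas 2.3.3 and scipy 1.17.1, and figures were drawn with matplotlib 3.10.9. Genes with at least 20 UMIs in the 2 groups together were compared, groups under 20 cells were given as values, and a floor is 3 counts. A gene past 2-fold is not called changed, since there is 1 library per time point and no p-value was computed. Intervals were checked on simulated Poisson totals of 2 groups. No separate cells were simulated, so the check does not cover UMIs concentrated in a few cells. Named genes are the members, the listed genes and the 5 highest and 5 lowest ratios among genes with at least 50 UMIs. The members and lists were chosen with earlier results of these data known. Alternatives changed the cell filter, clustering, doublets, depth, scaling, low-count filter and the definition of B cells and of expressing cells. Removing the cells with 4 or more UMIs of *Cd79a*, *Ms4a1* and *Ebf1*, the whole clusters, and cuts of 4 and 8 light chain UMIs were added after the data were seen. Values of some listed and named genes are not reported here.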

Additional observations from a re-analysis of the deposited data

How the results depend on the processing

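Of 150 counts and shares recomputed, 129 stayed within 1.5 times the reported count or within the interval of the reported share. All ratios of members over other cells kept their direction, between 12.6 and 1149. Without the smaller B cell cluster, whose leading genes include those of division, the members past 2-fold fell to 0 for each pair of libraries, the share of cells with *Mef2b* or *Eaf2* to 3.67% (naïve) and 2.38% (72 h), and the members past 2-fold between cells with and without these genes to 1 over the 3 libraries. *Fcmr* and *Ly6d* then turned to 1.16 and 1.12 (naïve) and to 1.07 and 1.08 (3 libraries). Thinned cells gave 2 members for 72 h over naïve and 0 for 72 h over 24 h, and shares of 11.2%, 0% and 6.25%. The mean of per-cell CPM gave 1 member for 24 h over naïve and 1 between naïve cells with and without *Mef2b* or *Eaf2*. For 72 h over 24 h the stricter cell filter, 15 principal components, the genes kept for clustering, the doublets left out and the whole clusters each gave 2 members. The whole clusters without cuts on immunoglobulin gave 9 for 72 h over naïve, since 27 cells with fewer than 2 light chain UMIs then counted as B cells at 72 h. At least 2 UMIs of *Mef2b* and *Eaf2* gave a naïve share of 13.3%, and at least 8 light chain UMIs gave 4 members between naïve cells with and without them. No paired analysis was possible because each time point has 1 library. The number of cells limits the values after surgery: at 24 h, 33 B cells held 5 *Mef2b* UMIs and 1 *Eaf2* UMI.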
